A study of Mus musculus with 7 samples.

Results

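The transcripts described here come from imprinted genes, the genes of which only the copy inherited from the mother or only the copy inherited from the father is active in some or all tissues. The set holds 38 genes of the 43629 in the count table, found by matching gene symbols to the table's Ensembl IDs, and all 38 passed the filter on low counts. By textbook origin 21 are active from the paternal copy, 15 from the maternal copy and 2 (Grb10 and Gnas) from either copy by tissue or promoter. The counts do not separate the copies, so every value is the sum of both alleles.

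Poly(A) RNA was sequenced from mouse E14 embryonic stem (ES) cells on a 129/Ola background and from their derivatives. KO XEN denotes Ago2 knockout cells of lines C4 and 5-3, 1 library each, after 5 days of differentiation toward extraembryonic endoderm (XEN) with activin A at 10 ng/mL and all-trans retinoic acid at 0.1 µM. WT XEN denotes wild-type E14 cells under the same treatment, in 2 libraries named A and B. KO ESC denotes the undifferentiated knockout lines in serum and LIF, the cytokine that holds ES cells undifferentiated, with 1 library of C4 and 2 of 5-3. Both 5-3 ES libraries carry the name of the same line, nothing in the labels says that libraries came from separate cultures, and wild-type ES cells were not analysed here. P-values therefore measure the spread between these libraries, which may be technical.

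Imprinted clusters are controlled by regions that carry DNA methylation on one parental copy. At the H19-Igf2 cluster, the unmethylated maternal copy binds CTCF, which keeps Igf2 silent and lets H19 be transcribed. The methylation is held through early development by proteins such as ZFP57, a zinc finger protein that binds a methylated hexamer, while long noncoding RNAs such as Airn and Kcnq1ot1 silence neighbouring genes on the copy that transcribes them. Many paternally active genes promote growth of the embryo and placenta and many maternally active ones restrain it, and cultured ES cell lines are known to vary in imprinted methylation.

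AGO2 is a member of the Argonaute family of proteins, which carry microRNAs (miRNAs), and several imprinted RNAs are miRNA hosts. MiRNA genes lie on the transcribed strand within 7 of the 38 genes, with 14 in Mirg, 3 in Rian, 2 in Meg3 and 1 each in Igf2, H19, Usp29 and Mest. Mature miRNAs are shown for H19, which differed between the knockout lines, and for Igf2 and Mest, which were higher in KO XEN than in both other groups; they are from RefSeq (GRCm38.p6), 5′ to 3′, with the seed (bases 2 to 8) in capitals. Those of H19 and Igf2 lie on the minus strand of chromosome 7 and that of Mest on the plus strand of chromosome 6.
miR-675-5p in H19: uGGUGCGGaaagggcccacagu
miR-675-3p in H19: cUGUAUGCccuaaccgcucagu
miR-483-5p in Igf2: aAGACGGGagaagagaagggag
miR-483-3p in Igf2: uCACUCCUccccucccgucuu
miR-335-5p in Mest: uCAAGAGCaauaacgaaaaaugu
No seed is shared among these miRNAs. The libraries measured the host transcripts and not the mature miRNAs.

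The hexamer bound by ZFP57, TGCCGC, was searched on both strands of RefSeq promoter windows that run from 250 bases before to 50 bases after each annotated start. Of the 38 genes 34 had a window, and 11 of these (32.4%) held the hexamer in at least 1 window, against 3527 of 27025 genes (13.1%) in the whole table. Counted by window, 12 of 54 windows of the imprinted genes (22.2%) held it, against 3813 of 32851 (11.6%), and the imprinted genes had more windows per gene, which raises the share of genes. Mest counted with 2 overlapping windows that hold the same hexamers. Windows of the imprinted genes had a median of 17 CpG dinucleotides against 7 over all windows, and the hexamer itself holds a CpG. The letters are a description and say nothing about binding. A window is shown for Plagl1 and Nnat, which differed between the knockout lines, and for Mest, which holds the hexamer at 2 places; each window is 300 bases of GRCm38.p6 on the plus strand, with the hexamer in capitals, here as its reverse complement.
Plagl1, chr10:13090582-13090881: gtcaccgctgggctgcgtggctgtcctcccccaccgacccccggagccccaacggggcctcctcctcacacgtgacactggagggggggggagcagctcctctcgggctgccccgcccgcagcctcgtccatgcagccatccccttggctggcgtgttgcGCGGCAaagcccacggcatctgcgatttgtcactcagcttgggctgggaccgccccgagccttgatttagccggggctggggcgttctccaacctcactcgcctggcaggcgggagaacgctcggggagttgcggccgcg
Nnat, chr2:157559828-157560127: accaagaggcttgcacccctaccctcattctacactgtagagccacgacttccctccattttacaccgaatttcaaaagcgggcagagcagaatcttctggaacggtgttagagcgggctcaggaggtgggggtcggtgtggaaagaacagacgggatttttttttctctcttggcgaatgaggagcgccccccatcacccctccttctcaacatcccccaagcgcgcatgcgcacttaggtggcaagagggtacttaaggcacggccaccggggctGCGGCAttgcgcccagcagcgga
Mest, chr6:30737800-30738099: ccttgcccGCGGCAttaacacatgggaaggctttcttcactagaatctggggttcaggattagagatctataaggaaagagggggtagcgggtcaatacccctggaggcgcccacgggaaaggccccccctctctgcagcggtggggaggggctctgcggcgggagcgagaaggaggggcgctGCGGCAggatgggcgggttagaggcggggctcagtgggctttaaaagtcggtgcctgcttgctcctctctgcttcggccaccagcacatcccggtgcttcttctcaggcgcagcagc

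Total counts ran from 13941826 (KO XEN, line C4) to 48650113 (KO ESC 5-3_2), and values are given as CPM, read counts relative to library size, scaled by the trimmed mean of M values. Ago2 was at 122 CPM in line C4 and 9.94 in line 5-3 of KO XEN, at 394 and 432 in WT XEN A and B, and at 94.4, 9.37 and 9.65 in KO ESC C4, 5-3_1 and 5-3_2, so the 2 knockout lines held unequal amounts of the transcript. Where the deletion lies in the gene is not given in the sources used here. The summed level of 10 primitive endoderm markers was 1671 to 2446 CPM in KO XEN and 22840.5 to 36708 CPM in WT XEN. In KO ESC it was 180.1 to 195 CPM, of which Lama1 alone held 168, 97.3 and 98.3 CPM in C4, 5-3_1 and 5-3_2. No marker was at 0 in any group. Set against WT XEN, the KO XEN libraries had 9 of the 10 markers lower (90%, against 23.9% of all genes). Set against KO ESC they had 7 higher (70%, against 34.8% of all genes) and 1, Hnf4a, lower (10%, against 34.3%). Sox7 and Lama1 did not differ past the threshold from KO ESC. The sum of 8 ES cell markers was 70.3 to 96.8 CPM in KO XEN, 886 to 935.5 CPM in WT XEN and 5840 to 5968 CPM in KO ESC. The sum of 8 fibroblast and mesenchyme markers was 2569 to 4111 CPM in KO XEN, against 321 to 727 CPM in WT XEN and 14.1 to 24.2 CPM in KO ESC, with Lum at 0 in KO XEN. Most of it in KO XEN C4 and 5-3 was Col1a1 (1469 and 2119 CPM) and Col3a1 (942.5 and 1733 CPM). Col1a2 went the other way, at 28.5 and 36 CPM in KO XEN against 212 and 57.9 CPM in WT XEN. The sum of 8 neuronal markers was 151 to 169 CPM in KO XEN and 22.8 to 32.1 CPM in WT XEN. In KO ESC it was 471 to 505 CPM, of which Stmn2 alone held 412, 398.5 and 439 CPM in C4, 5-3_1 and 5-3_2. Tubb3 held 69.6 and 82.2 CPM of the sum in KO XEN C4 and 5-3. The part of these cell type markers in the results on imprinted genes was not tested, and in bulk RNA fewer cells of a type and less RNA per cell cannot be told apart.

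Together the imprinted genes took 1.7% and 1.37% of all counts in KO XEN C4 and 5-3, 0.796% and 0.67% in WT XEN A and B, and 0.338%, 0.273% and 0.284% in KO ESC. On the scale of CPM per kilobase of exon, which allows genes to be set side by side, the leading genes in KO XEN were H19 (733), Peg10 (516), Igf2 (374.5), Cd81 (284) and Peg3 (216), although the H19 mean rested on line C4 alone. In WT XEN the order was Peg10 (178), Igf2 (142), Peg3 (122), Cd81 (101) and Igf2r (100.3). In KO ESC it was Peg10 (80.9), Cd81 (52.8), Mcts2 (46.2), Grb10 (42.3) and Snrpn (39.5), with Igf2 at 0.903.

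**Figure D1:**
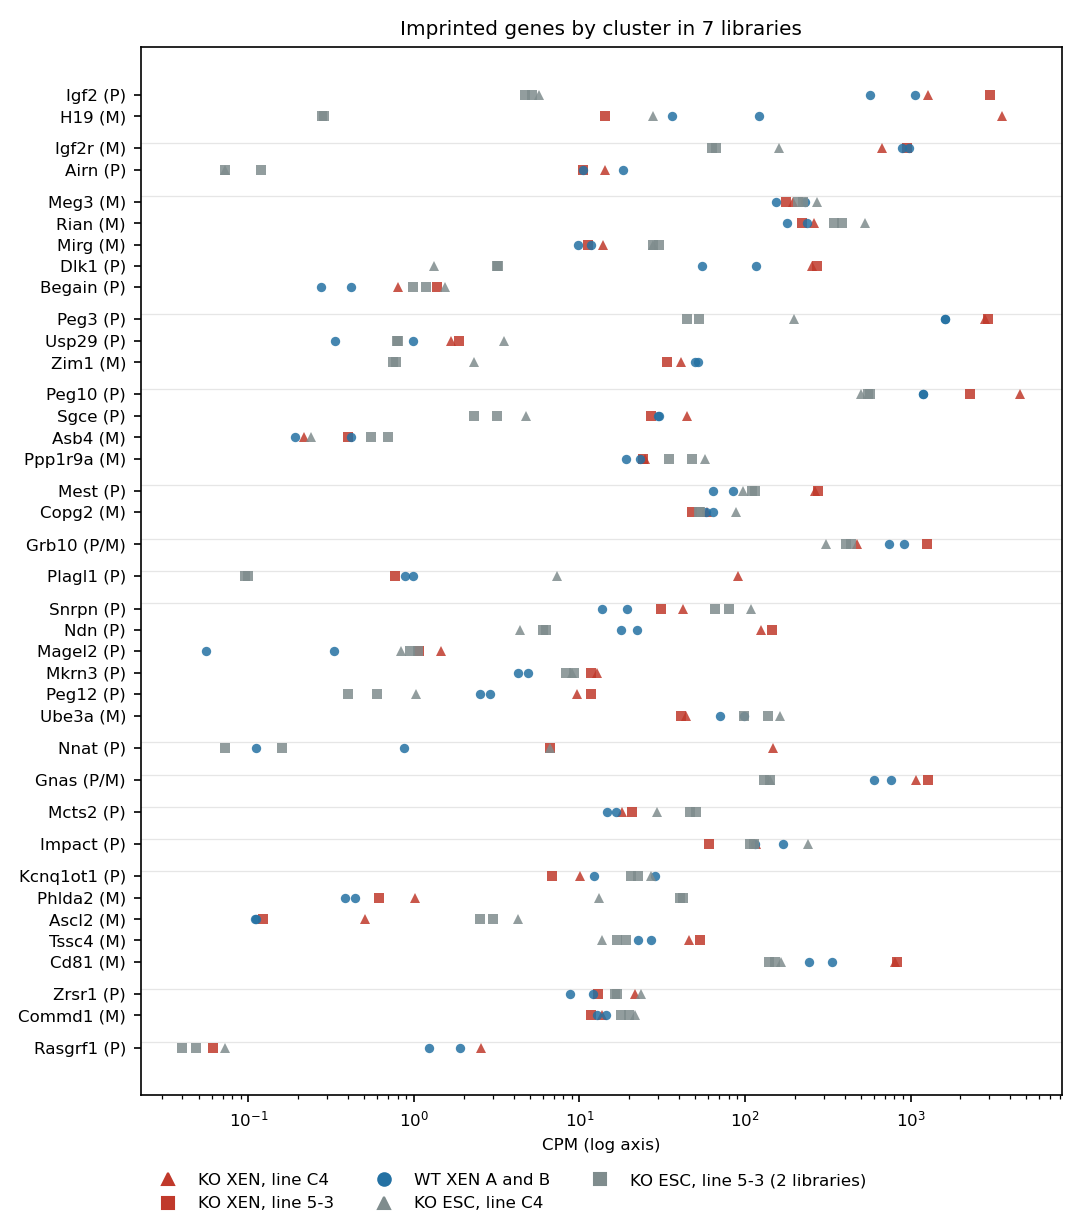
Level of each of the 38 imprinted genes in the 7 libraries, in CPM on a log axis, grouped by cluster; P and M after the symbol mark the active parental copy, colours mark groups, triangles mark line C4, squares line 5-3 and circles wild type. Within KO XEN the triangle and square lie far apart for H19 (3591 and 14.3 CPM), Plagl1 (90.5 and 0.769 CPM) and Nnat (148 and 6.62 CPM).

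A difference between the knockout lines was present in both cell states for 3 of the imprinted genes. H19, a maternally active noncoding RNA, Plagl1, a paternally active zinc finger gene that restrains proliferation, and Nnat, a paternally active gene for a membrane protein of the endoplasmic reticulum, were all higher in line C4 than in line 5-3. In a fit of the 5 knockout libraries with cell state as a covariate (edgeR's quasi-likelihood test, Benjamini-Hochberg adjusted p below 0.05 over 18986 genes), only 8 genes (0.0421%) were higher in C4 and 1 gene (0.00527%) was lower. These 3 were among the 8, or 7.89% of the 38, and none of the 38 was lower by edgeR or by DESeq2, with 4 lower at an unadjusted p below 0.05. Since the set was chosen with earlier results known, the 7.89% is a description. The counts among the 38 rose without KO XEN C4, without KO XEN 5-3 or without KO ESC C4. Those fits leave 1 library in a state or a line. The share of all genes called in them is not given, so the rise is no result about imprinted genes.

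H19 was at 3591 CPM in C4 and 14.3 CPM in 5-3 among KO XEN, and at 27.8 CPM in C4 and 0.288 and 0.28 CPM in 5-3 among KO ESC. The C4 library was higher in each state, by a CPM ratio of 251.5 in XEN and 97.7 in ESC, and WT XEN lay between the KO XEN lines at 122 and 36.2 CPM. The log2 difference of C4 from 5-3 was 7.42 ± 0.32 (SE, adjusted p = 0.00575, edgeR). Igf2, its neighbour in the cluster and a paternally active growth factor, had CPM ratios of C4 over 5-3 of 0.42 in XEN and 1.15 in ESC and did not pass this test.

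Plagl1 was at 90.5 CPM in C4 and 0.769 CPM in 5-3 among KO XEN, and at 7.37 CPM in C4 and 0.0961 and 0.1 CPM in 5-3 among KO ESC, where the 5-3 libraries held 4 and 5 counts. WT XEN A and B, at 0.986 and 0.885 CPM, lay near KO XEN 5-3. The log2 difference of C4 from 5-3 was 6.55 ± 0.23 (SE, adjusted p = 0.00488, edgeR), with CPM ratios of 118 in XEN and 75.1 in ESC.

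Nnat was at 148 CPM in C4 and 6.62 CPM in 5-3 among KO XEN, and at 6.6 CPM in C4 and 0.072 and 0.16 CPM in 5-3 among KO ESC. It was higher in C4 in each state, and it was also higher in KO XEN 5-3 than in either WT XEN library (0.877 and 0.111 CPM). The log2 difference of C4 from 5-3 was 4.86 ± 0.34 (SE, adjusted p = 0.0365, edgeR), with CPM ratios of 22.4 in XEN and 56.9 in ESC. The 3 genes lie on different chromosomes (H19 on 7, Plagl1 on 10, Nnat on 2), and each kept its call in all settings tried. The settings without KO XEN C4, without KO XEN 5-3 and with ES libraries alone all rest on the same ES libraries. They are thus not separate checks.

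Ago2 itself was among the 8 genes, at a log2 difference of 3.40 ± 0.13 (SE, adjusted p = 0.00488, edgeR). The line with more Ago2 transcript was also the line with more H19, Plagl1 and Nnat. With 2 lines, Ago2 level and any other property of a line cannot be told apart. Among genes of imprint maintenance, Tet1, an enzyme that oxidises methylated cytosine, was at 1511 CPM in KO ESC C4 against 423 and 547 CPM in KO ESC 5-3, and Dppa3, which protects imprints in the early embryo, at 22.6 CPM against 3.53 and 3.1 CPM. Neither difference passed the test over both states (adjusted p = 0.191 for Tet1 and 0.113 for Dppa3, edgeR), and Zfp57 differed by -0.15 ± 0.11 (SE, adjusted p = 0.596, edgeR).

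**Figure D2:**
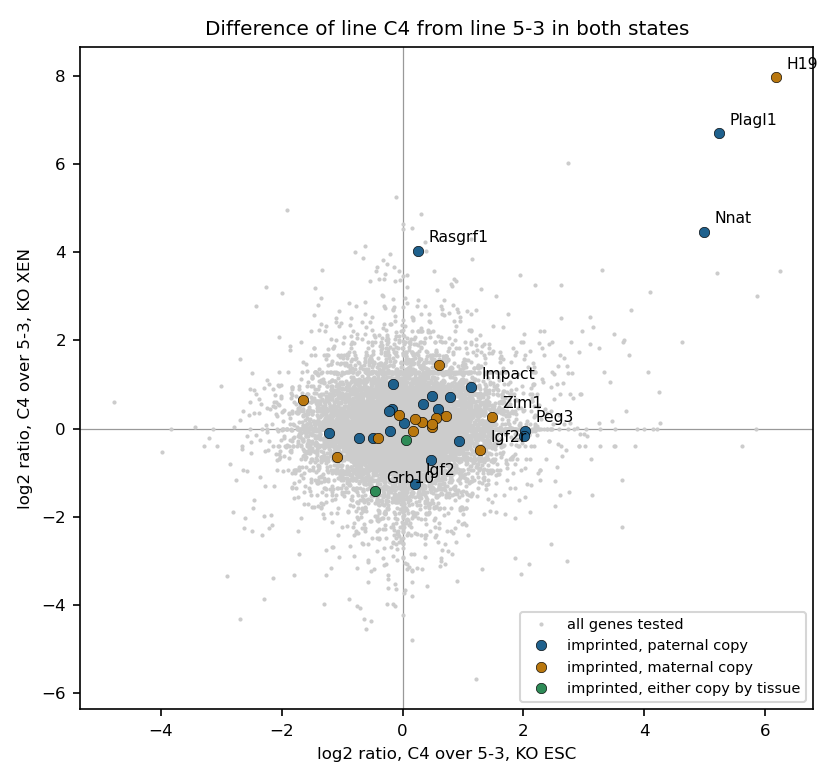
Log2 ratio of line C4 over line 5-3 (after adding 0.1 CPM) in KO XEN on the y axis and in KO ESC on the x axis, for the 38 imprinted genes coloured by active copy and for all 18986 genes tested in grey. H19, Plagl1 and Nnat stand alone among the imprinted genes at the upper right, Rasgrf1 is high on the y axis and near 0 on the x axis, and Peg3 and Zim1 are right of centre at heights near 0.

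Over the 38 genes the log2 ratio of C4 over 5-3 had the same sign in XEN and ESC for 25 (65.8%), against 48.5% of all genes tested, and Pearson's r between the states was 0.798 across these genes. Without H19, Plagl1 and Nnat it was 0.0824 over 35 genes, so the correlation rested on those 3. At least 4-fold in the same direction in both states were 3 of the 38 (7.89%) and 31 of all genes (0.163%). Genes within a state share their libraries and are not independent, and the 3 genes are those that passed the test above.

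For some other imprinted genes the CPM of the lines lay further apart in one state than in the other. Peg3, a paternally active zinc finger gene, was at 2831 CPM in C4 and 2932 CPM in 5-3 among KO XEN, but at 198 CPM in C4 and 44.9 and 52.5 CPM in 5-3 among KO ESC. Usp29 and Zim1, its cluster neighbours, had CPM ratios of C4 over 5-3 of 0.89 and 1.21 in XEN and 4.4 and 3.02 in ESC. Rasgrf1, a paternally active exchange factor for Ras, was at 2.54 CPM in C4 and 0.0615 CPM in 5-3 (2 counts) among KO XEN, and at 0.04 to 0.072 CPM in KO ESC; Rasgrf1 and Impact were chosen for description after their values were seen. A fit with a mean for each line and state, added after the data were seen, called no gene of 19555 for a line difference that differed between states (edgeR, the only tool run for it). At an unadjusted p below 0.05 were 1883 genes, 7 of them among the 38. Peg3 had the smallest p there (difference in log2 ratio, XEN minus ESC, of -2.08 ± 0.25 SE, adjusted p = 0.263, edgeR), so a difference between states was not shown. Impact, a paternally active regulator of translation, lay higher in C4 in both states. It was at 116 CPM in C4 and 60.7 CPM in 5-3 among KO XEN. Among KO ESC it was at 240.5 CPM in C4 against 107 and 113 CPM in 5-3. In the main fit it did not pass (log2 difference 1.01 ± 0.12 SE, adjusted p = 0.106, edgeR). It passed with DESeq2 (1.04, adjusted p = 5.2e-08) and with no filter on low counts (0.99, adjusted p = 0.00387, edgeR). Impact again did not pass in 4 of 10 alternative settings, with values from 0.84 to 1.13 over the 10. The settings without KO XEN C4 (1.13), without KO XEN 5-3 (1.13) and with ES libraries alone (1.12) rest on the same ES libraries. They are not separate checks, so the number of settings passed is a description.

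**Figure D3:**
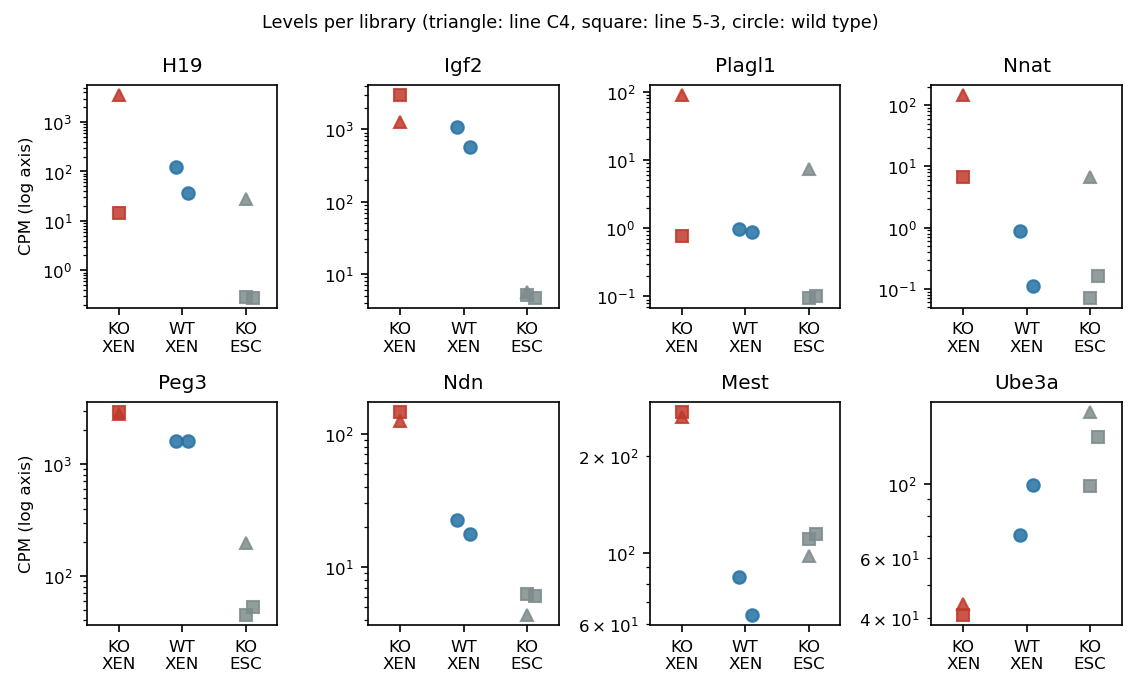
Levels of 8 imprinted genes in CPM on log axes, each with its own range, in KO XEN, WT XEN and KO ESC; each point is a library, with triangles for line C4, squares for line 5-3 and circles for wild type. For H19, Plagl1 and Nnat the 2 knockout lines are apart in both states, while for Ndn, Mest and Ube3a the KO XEN libraries lie together and apart from WT XEN.

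Set against WT XEN, KO XEN held more RNA from many genes of paternal textbook origin. Of the 38 genes 14 were higher and 2 lower in KO XEN, while 22 did not pass (edgeR quasi-likelihood test over 18426 genes in 1 fit of all 7 libraries). Over all genes 22.3% were higher and 23.9% lower. The share of imprinted genes called higher (36.8%) thus stood above that of all genes and the share called lower (5.26%) below it. The median log2 fold change was 0.81 against 0.00 over all genes. Since the set was chosen with earlier results of these data known, these shares, and those against KO ESC below, are a description. Of the 21 paternally active genes 11 were higher and 1 lower (median 1.41), and of the 15 maternally active genes 2 were higher and 1 lower (median 0.21). Of the 11 higher paternal genes, 5 lie in the Snrpn-Ube3a cluster. The difference between the origins was not tested. Mitochondrial transcripts took 0.781% and 0.979% of all counts in KO XEN C4 and 5-3, 1.94% and 2.64% in WT XEN A and B, and 2.79% to 3.26% in KO ESC, and their part in these counts was not tested. The count of 14 fell to 7 without WT XEN B and to 9 without KO XEN 5-3, while the count of 2 lower was 0 without either of these, 1 without KO XEN C4 and 4 without both C4 libraries.

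In the Snrpn-Ube3a cluster, the region of Prader-Willi and Angelman syndromes in humans, 5 of 6 genes were higher in KO XEN and 1 was lower. Ndn, a paternally active gene for a MAGE protein of differentiated neurons, was at 125 and 146 CPM in KO XEN C4 and 5-3, against 22.4 and 17.8 CPM in WT XEN A and B. Both KO XEN libraries lay above both WT XEN libraries (a log2 fold change of 2.76 ± 0.23 SE, adjusted p = 0.000202, edgeR). Mkrn3, a makorin ring finger gene, was at 12.7 and 11.7 CPM in KO XEN against 4.27 and 4.92 CPM in WT XEN, again without overlap (1.41 ± 0.24 SE, adjusted p = 0.00229, edgeR). Both calls held in every setting. Snrpn, which encodes a splicing protein, was at 42.4 and 31.3 CPM in KO XEN against 19.3 and 13.7 CPM in WT XEN (1.15 ± 0.29 SE, adjusted p = 0.0136, edgeR). The groups did not overlap, but the call was lost without WT XEN B (adjusted p = 0.0926) or KO XEN C4 (0.0837). Of Snrpn's exon bases 27.3% are shared with Snurf and an overlapping model on the same strand, so its count is uncertain.

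Peg12, which lies in the same region, was at 9.66 and 11.8 CPM in KO XEN against 2.52 and 2.9 CPM in WT XEN (a log2 fold change of 1.98 ± 0.44 SE, adjusted p = 0.00796, edgeR), and the call was lost without WT XEN A (adjusted p = 0.0526). Magel2, a second MAGE gene of the region, was low everywhere, at 1.08 to 1.45 CPM in KO XEN against 0.0553 to 0.329 CPM in WT XEN, where WT XEN B held 2 counts. It passed (2.68 ± 0.71 SE, adjusted p = 0.0167, edgeR) but lost the call without WT XEN B (1.91, adjusted p = 0.0562), without KO XEN C4 (2.47, 0.0648) and without both C4 libraries (2.47, 0.0737), and the value was 4.34 without WT XEN A. Ube3a, the ubiquitin ligase that is maternally active in neurons, ran the other way. It was at 44 and 40.8 CPM in KO XEN against 70.2 and 99.1 CPM in WT XEN. Snhg14, on the opposite strand, shares 8.74% of its exon bases. The groups did not overlap (-1.0 ± 0.26 SE, adjusted p = 0.0159, edgeR), and the call was lost without WT XEN B (adjusted p = 0.0969), KO XEN C4 (0.0632) or KO XEN 5-3 (0.0619). The neuronal markers given above were also higher in KO XEN, with 5 of 8 called (62.5%, against 22.3% of all genes). Snap25 among them was at 16.3 CPM in KO XEN C4 and 0.154 CPM in KO XEN 5-3. The part of these markers in the change of this cluster was not tested.

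At the H19-Igf2 cluster, Igf2 was at 1269 and 3018 CPM in KO XEN against 1064 and 566 CPM in WT XEN. KO XEN was higher without overlap, though KO XEN C4 was only a little above WT XEN A (a log2 fold change of 1.39 ± 0.42 SE, adjusted p = 0.027, edgeR). The call was lost without KO XEN 5-3 (0.55, adjusted p = 0.275), WT XEN B (1.00, 0.154) or KO ESC 5-3_2 (1.32, 0.051). H19, with KO XEN libraries on either side of WT XEN, did not pass (4.51 ± 2.54 SE, adjusted p = 0.182, edgeR) and turned to -2.47 without KO XEN C4. With line as a block, in which WT XEN is set midway between the lines, H19 passed at 1.56 (adjusted p = 0.0495).

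Plagl1 likewise gave 5.59 ± 2.42 (SE, adjusted p = 0.0928, edgeR) and -0.28 without KO XEN C4, against 3.20 (adjusted p = 0.000293) with line as a block. Nnat passed with KO XEN above WT XEN (7.27 ± 2.34 SE, adjusted p = 0.0352, edgeR), but its size depended on single libraries. It was 3.73 (adjusted p = 0.232) without KO XEN C4, 9.28 (0.102) without WT XEN A and 6.44 (0.173) without WT XEN B. Blocking on line gave 5.98. Nnat lies within Blcap on the opposite strand, and whether counting used strand is not given in the sources used here.

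Mest, Peg10 and Dlk1 were also higher. Mest, a hydrolase-fold gene of mesoderm and placenta, was at 264 and 275 CPM in KO XEN against 84.2 and 64 CPM in WT XEN, with no overlap (a log2 fold change of 1.86 ± 0.18 SE, adjusted p = 0.000273, edgeR). Peg10, a gene derived from a retrotransposon and needed in the placenta, was at 4593 and 2285 CPM in KO XEN against 1184 and 1185 CPM in WT XEN, with line C4 highest (1.54 ± 0.30 SE, adjusted p = 0.00412, edgeR). Peg10 stayed past the threshold without KO XEN C4, where the value was 0.95. Dlk1, a transmembrane relative of Notch ligands, was at 255 and 271 CPM in KO XEN against 116.7 and 55.2 CPM in WT XEN, without overlap. Its log2 fold change was 1.61 ± 0.44 (SE, adjusted p = 0.0179, edgeR), and the call was lost without WT XEN B (adjusted p = 0.0967), KO XEN C4 (0.0583) or KO XEN 5-3 (0.0844). Of the mesenchyme markers 5 of 8 were called higher (62.5%, against 22.3% of all genes) and 2 lower (25%, against 23.9%). The lower ones were Col1a2 (-2.06 ± 0.54 SE, adjusted p = 0.0151, edgeR) and Lum, which was at 0 in KO XEN. The part of the 8 markers in these results was not tested. Mest shares 23.1% of its exon bases with Copg2 on the opposite strand; Copg2 was at 47.8 to 58.6 CPM in KO XEN against 58.4 to 63.9 CPM in WT XEN.

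Among the genes of the Kcnq1ot1 domain, Cd81, a tetraspanin, was at 804 and 833 CPM in KO XEN against 338 and 245.0 CPM in WT XEN (a log2 fold change of 1.49 ± 0.19 SE, adjusted p = 0.000675, edgeR). Tssc4 was at 45.9 and 53.2 CPM against 27 and 22.6 CPM (1.00 ± 0.22 SE, adjusted p = 0.00723, edgeR). Neither pair of groups overlapped, and Cd81 kept its call in every setting, while Tssc4 lost it without WT XEN B (adjusted p = 0.0523) or KO XEN 5-3 (0.0783). Kcnq1ot1, the noncoding RNA of the paternal copy, was at 10.1 and 6.8 CPM in KO XEN against 12.2 and 28.8 CPM in WT XEN (-1.29 ± 0.41 SE, adjusted p = 0.0321, edgeR). Its call was lost without WT XEN B (-0.56, adjusted p = 0.235), KO XEN C4 (-1.59, 0.0578), KO XEN 5-3 (-1.11, 0.145) or both C4 libraries (-1.59, 0.0726). It lies within Kcnq1 on the opposite strand. Tssc4 likewise lies within Trpm5 on the opposite strand, with 11.9% of its exon bases shared. Gnas, which encodes the alpha subunit of the stimulatory G protein, was at 1081 and 1281 CPM in KO XEN against 763.5 and 601 CPM in WT XEN (0.79 ± 0.17 SE, adjusted p = 0.00732, edgeR; 0.58, adjusted p = 0.079, without KO XEN 5-3), and 22% of its exon bases are shared with antisense genes.

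Begain, a gene of the Dlk1-Meg3 cluster, passed at low levels (0.799 to 1.38 CPM in KO XEN against 0.274 to 0.415 CPM in WT XEN; 1.69 ± 0.52 SE, adjusted p = 0.0306, edgeR). It lost the call with no filter on low counts (adjusted p = 0.0508) and without KO ESC 5-3_1 (0.0549), KO ESC 5-3_2 (0.0535), WT XEN A (0.156), WT XEN B (0.0695) or KO XEN 5-3 (0.231). Peg3 had both KO XEN libraries, at 2831 and 2932 CPM, above both WT XEN libraries, at 1627 and 1612 CPM, but did not pass (0.83 ± 0.63 SE, adjusted p = 0.314, edgeR). All 7 libraries share 1 estimate of spread, and without KO ESC C4 it passed (0.76, adjusted p = 0.00564). Zrsr1 and Impact did not pass, but passed with line as a block at 0.69 (adjusted p = 0.0409) and -0.76 (0.0198). The maternal noncoding RNAs Meg3, Rian and Mirg had log2 fold changes of -0.04, 0.21 and 0.23 and did not pass. Apart from H19 and Plagl1, the genes that did not pass lay between -0.69 (Impact) and 1.43 (Usp29). Usp29 was at 1.67 to 1.88 CPM in KO XEN, 0.332 to 0.986 CPM in WT XEN and 0.793 to 3.5 CPM in KO ESC, and Asb4 at 0.218 to 0.4, 0.192 to 0.415 and 0.24 to 0.7 CPM in the same groups.

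**Figure D4:**
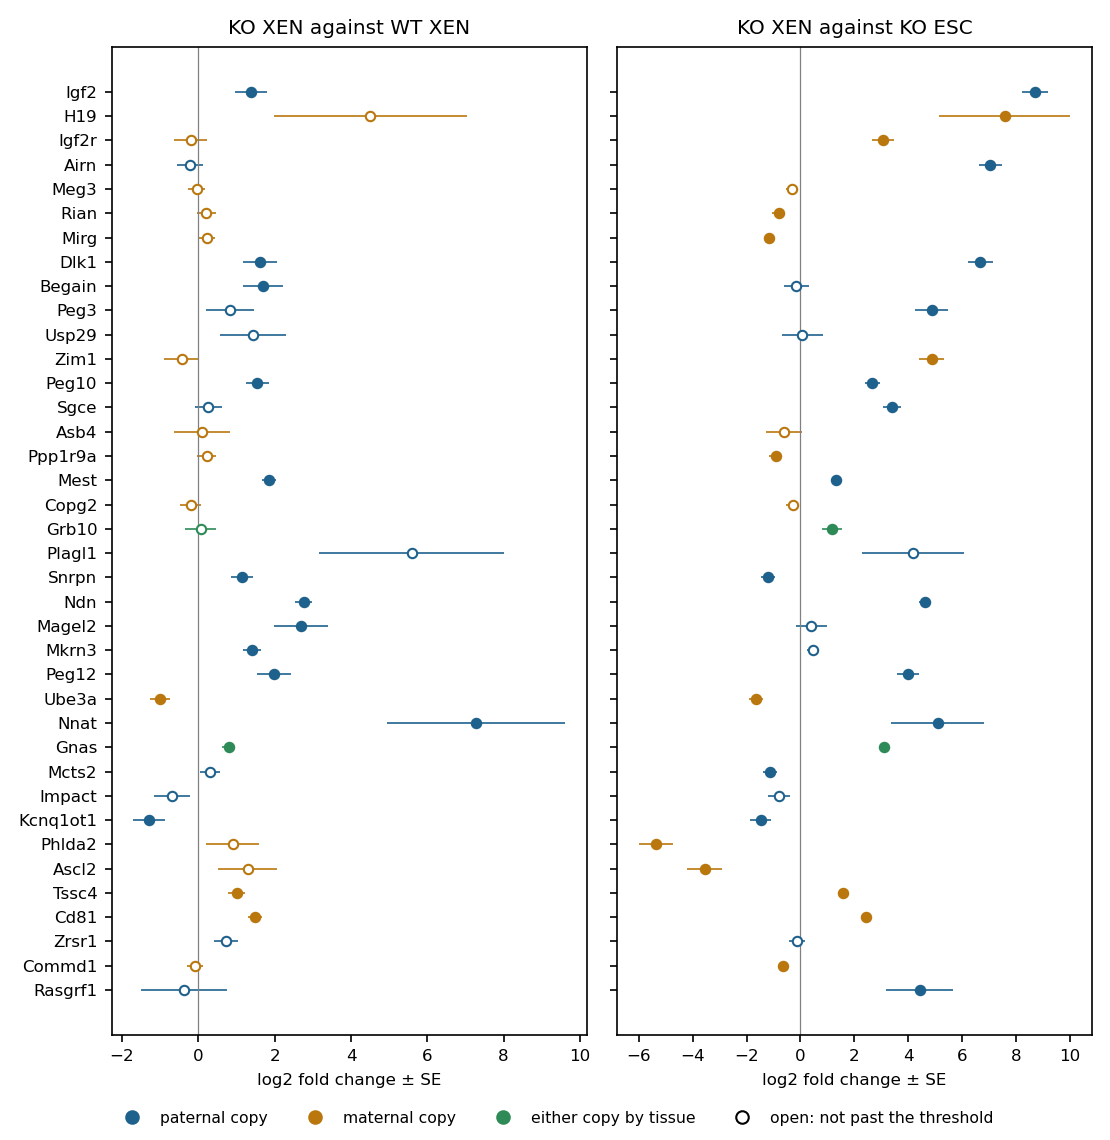
Log2 fold change with its standard error for the 38 imprinted genes in KO XEN against WT XEN (left) and KO XEN against KO ESC (right), coloured by active copy; filled points passed an adjusted p of 0.05. On the left 14 genes are filled above 0 and 2 below, and on the right 18 above and 10 below; H19, Plagl1 and Nnat carry the widest bars on the left.

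Set against KO ESC, KO XEN held more RNA of Igf2, Airn and Dlk1, among others, and less of Phlda2, Ube3a and Mirg. In KO XEN against KO ESC 18 of the 38 genes were higher and 10 lower (47.4% and 26.3%), against 34.8% and 34.3% of all genes, with a median log2 fold change of 0.82 against -0.08. Called in either direction were 28 of the 38 (73.7%), near the 69% of all genes. Paternally active genes were 11 higher and 3 lower of 21, and maternally active genes 5 higher and 7 lower of 15. WT XEN against KO ESC, a comparison in which genotype and state both differ, gave 15 higher and 14 lower, against 32.2% and 30.3% of all genes. Both comparisons share the KO ESC libraries, and KO XEN is shared with the comparison to WT XEN, so the counts are not independent.

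Igf2 was at 1269 and 3018 CPM in KO XEN against 5.66, 5.16 and 4.68 CPM in KO ESC (a log2 fold change of 8.70 ± 0.48 SE, adjusted p = 3.83e-06, edgeR). This was the largest value of the set with all libraries, but without KO ESC C4 it was 8.67, below H19 (12.52), Nnat (9.20) and Plagl1 (8.70), and without KO XEN 5-3 it was 7.86, below H19 (8.52). Its scavenging receptor Igf2r was at 677 and 952.5 CPM in KO XEN against 159.7, 63.6 and 67.2 CPM in KO ESC (3.07 ± 0.40 SE, adjusted p = 0.000235, edgeR). Airn, the paternal noncoding RNA that overlaps Igf2r, was at 14.2 and 10.5 CPM in KO XEN against 0.072, 0.072 and 0.12 CPM in KO ESC (7.05 ± 0.42 SE, adjusted p = 4.96e-06, edgeR). None of these overlapped between the states, and WT XEN lay with KO XEN for Igf2r (890 and 978.5 CPM) and Airn (10.5 and 18.3 CPM).

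Dlk1 was at 255 and 271 CPM in KO XEN against 1.32, 3.24 and 3.16 CPM in KO ESC (a log2 fold change of 6.67 ± 0.46 SE, adjusted p = 9.82e-06, edgeR). The maternal RNAs of its cluster did not rise with it. Rian was at 261 and 219.6 CPM in KO XEN against 534, 343.5 and 383 CPM in KO ESC (-0.81 ± 0.23 SE, adjusted p = 0.0133, edgeR; 0.0635 without KO XEN 5-3). Mirg was at 13.9 and 11.3 CPM against 27.7, 30.1 and 27.8 CPM (-1.18 ± 0.19 SE, adjusted p = 0.000869, edgeR). Meg3 was at 177 to 196 CPM in KO XEN against 208 to 271 CPM in KO ESC and did not pass (-0.33 ± 0.20 SE, adjusted p = 0.181, edgeR).

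In the Peg3 cluster, Peg3 was at 2831 and 2932 CPM in KO XEN against 198, 44.9 and 52.5 CPM in KO ESC (a log2 fold change of 4.87 ± 0.62 SE, adjusted p = 0.000218, edgeR; 5.80 without KO ESC C4). Zim1, a maternally active zinc finger gene beside it, was at 40.8 and 33.8 CPM against 2.3, 0.744 and 0.781 CPM (4.87 ± 0.46 SE, adjusted p = 4.32e-05, edgeR; 5.51 without KO ESC C4). Thus Peg3 and Zim1, neighbours with opposite textbook origins, were both higher in KO XEN, without overlap. Peg10 was at 4593 and 2285 CPM in KO XEN against 500.0, 549.9 and 569 CPM in KO ESC (2.67, adjusted p = 5.62e-05, edgeR; 2.03 without both C4 libraries). Sgce, the sarcoglycan gene that shares its promoter region, was at 44.9 and 27.1 CPM against 4.75, 2.31 and 3.16 CPM (3.40, adjusted p = 5.49e-05, edgeR). Ppp1r9a, further along the same cluster and maternally active, was at 25 and 24.3 CPM in KO XEN against 57.3, 34.9 and 47.9 CPM in KO ESC (-0.92, adjusted p = 0.00779, edgeR; 0.0548 without both C4 libraries).

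The Snrpn-Ube3a cluster split. Ndn was at 125 and 146 CPM in KO XEN against 4.37, 6.29 and 6.04 CPM in KO ESC (a log2 fold change of 4.61 ± 0.22 SE, adjusted p = 2.21e-06, edgeR). Peg12 was at 9.66 and 11.8 CPM against 1.03, 0.6 and 0.4 CPM (3.99, adjusted p = 7.33e-05, edgeR). Snrpn was at 42.4 and 31.3 CPM in KO XEN against 109, 80.4 and 65.8 CPM in KO ESC (-1.21, adjusted p = 0.00445, edgeR). Ube3a was at 44 and 40.8 CPM against 163, 98.5 and 137 CPM (-1.65, adjusted p = 0.000584, edgeR). Mkrn3 was at 12.7 and 11.7 CPM in KO XEN and 9, 8.33 and 9.33 CPM in KO ESC and did not pass (adjusted p = 0.0824, edgeR). Ndn and Snrpn, both paternally active, thus moved in opposite directions.

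In the Kcnq1ot1 domain Phlda2, Ascl2 and Kcnq1ot1 fell while Cd81 and Tssc4 rose. Phlda2, which restrains placental growth, was at 1.02 and 0.615 CPM in KO XEN against 13.1, 42.1 and 40.7 CPM in KO ESC (a log2 fold change of -5.36 ± 0.64 SE, adjusted p = 0.000144, edgeR). Ascl2, a trophoblast transcription factor, was at 0.123 to 0.508 CPM in KO XEN against 2.52 to 4.27 CPM in KO ESC (-3.56 ± 0.64 SE, adjusted p = 0.00141, edgeR). Ascl2 rested on 7 and 4 counts in KO XEN C4 and 5-3, and its value was -4.69 without KO XEN C4 and -2.75 without KO XEN 5-3. Kcnq1ot1 was at 10.1 and 6.8 CPM in KO XEN against 27.2, 20.5 and 22.5 CPM in KO ESC (-1.48, adjusted p = 0.00899, edgeR; 0.0622 without KO XEN 5-3). Cd81, at 804 and 833 CPM in KO XEN against 164, 152 and 140.4 CPM in KO ESC, and Tssc4, at 45.9 and 53.2 CPM against 13.6, 19 and 16.8 CPM, were both higher (2.43 and 1.59, adjusted p = 9.72e-06 and 0.000173, edgeR).

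Mest was at 264 and 275 CPM in KO XEN against 97.8, 110.3 and 114 CPM in KO ESC (a log2 fold change of 1.33 ± 0.16 SE, adjusted p = 0.000137, edgeR), whereas in WT XEN, at 84.2 and 64 CPM, it was lower than in KO ESC (-0.54 ± 0.16 SE, adjusted p = 0.0194, edgeR). Mest was the only one of the 38 called in opposite directions in the 2 comparisons with KO ESC. Gnas was at 1081 and 1281 CPM in KO XEN against 141.5, 141.4 and 131 CPM in KO ESC (3.10 ± 0.16 SE, adjusted p = 2.99e-06, edgeR). Mcts2, a paternally active retrogene within H13 on the same strand, was at 18 and 20.9 CPM in KO XEN against 29.4, 46.4 and 50.7 CPM in KO ESC (-1.12, adjusted p = 0.00502, edgeR). Commd1, a maternally active gene that hosts Zrsr1, was at 13.7 and 11.8 CPM against 21.8, 20.0 and 17.9 CPM (-0.64, adjusted p = 0.0183, edgeR; 0.0861 without KO XEN 5-3).

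For 4 of the genes called higher in KO XEN than in KO ESC the call rested on 1 library. H19 (7.58 ± 2.44 SE, adjusted p = 0.0235, edgeR) overlapped between the states and gave 0.61 (adjusted p = 0.816) without KO XEN C4, 6.92 (0.0564) without KO ESC 5-3_2, 12.52 without KO ESC C4 and 5.64 without both C4 libraries. Nnat (5.09 ± 1.72 SE, adjusted p = 0.0286, edgeR) gave 1.55 (0.506) without KO XEN C4, 4.46 (0.0549) without KO ESC 5-3_1, 4.44 (0.0715) without KO ESC 5-3_2 and 9.20 without KO ESC C4. Rasgrf1 (4.43 ± 1.25 SE, adjusted p = 0.0131, edgeR) gave 0.21 (0.873) without KO XEN C4 and 0.46 (0.739) without both C4 libraries. Grb10, an adaptor that restrains growth signalling, was at 472 and 1263 CPM in KO XEN against 308, 406.5 and 439.5 CPM in KO ESC (1.17 ± 0.36 SE, adjusted p = 0.0202, edgeR) and gave 0.22 (0.502) without KO XEN 5-3, 0.95 (0.0806) without KO ESC C4 and 1.19 (0.0501) without KO ESC 5-3_1. Plagl1 did not pass (4.18 ± 1.88 SE, adjusted p = 0.0794, edgeR), turned to -1.70 without KO XEN C4 and passed at 3.40 (adjusted p = 3.8e-05) with line as a block. Impact did not pass, but passed with line as a block (-0.94, adjusted p = 0.00372). In the main fits, Meg3, Usp29, Asb4, Copg2 and Impact passed in none of the 4 comparisons.

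A further list held 31 imprinted genes, gathered with earlier results of these data known, of which 28 were tested. This list was not split by parental origin, so it does not bear on the split by origin given above. In KO XEN against WT XEN 14 were higher (50%, against 22.3% of all genes) and 2 lower (7.14%, against 23.9%), with a median log2 fold change of 1.05. In KO XEN against KO ESC 18 were higher (64.3%, against 34.8% of all genes) and 3 lower (10.7%, against 34.3%), with a median of 1.43. Osbpl5 was at 121 and 109.7 CPM in KO XEN against 20.2 and 13.6 CPM in WT XEN (2.77 ± 0.26 SE, adjusted p = 0.000239, edgeR). Calcr, the calcitonin receptor, was at 21.1 and 27 CPM against 0.822 and 0.249 CPM (5.48 ± 0.54 SE, adjusted p = 0.000302, edgeR). Blcap, which surrounds Nnat, was at 116.8 and 109 CPM in KO XEN against 37.9 and 38.3 CPM in WT XEN (1.56 ± 0.15 SE, adjusted p = 0.000254, edgeR). Sfmbt2, a Polycomb gene of extraembryonic tissue, was lower, at 18.7 and 23.8 CPM in KO XEN against 249 and 519 CPM in WT XEN (-4.17 ± 0.42 SE, adjusted p = 0.000316, edgeR).

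Of 20 genes of imprint maintenance, gathered with earlier results of these data known, KO XEN had 10 lower than WT XEN (50%, against 23.9% of all genes). It had 3 higher (15%, against 22.3%), and the median log2 fold change was -0.84. Set against KO ESC, 17 were lower (85%, against 34.3% of all genes) and 1 higher (5%, against 34.8%), with a median of -2.31. Dnmt3l, a cofactor of DNA methylation in germ cells, was at 1.67 and 1.54 CPM in KO XEN, against 97.9 and 119 CPM in WT XEN and 382, 473 and 468 CPM in KO ESC. Its log2 fold change was -6.09 ± 0.23 against WT XEN (SE, adjusted p = 5.75e-05, edgeR) and -8.11 ± 0.24 against KO ESC (adjusted p = 9.34e-07). Dnmt3b, a DNA methyltransferase, was at 10.4 and 14.2 CPM in KO XEN against 261.7 and 128.6 CPM in WT XEN (-3.98 ± 0.37 SE, adjusted p = 0.000239, edgeR), and Suz12, a Polycomb subunit, at 34.7 and 42 CPM against 154 and 206 CPM (-2.23 ± 0.21 SE, adjusted p = 0.000266, edgeR). Tet3, which oxidises methylated cytosine, was higher than in WT XEN (1.13 ± 0.19 SE, adjusted p = 0.00228, edgeR) and than in KO ESC (3.43 ± 0.18 SE, adjusted p = 2.99e-06). Zfp57, named because it reads the hexamer shown above, was at 44.2 and 48.2 CPM in KO XEN against 52.9 and 32.4 CPM in WT XEN, with no difference past the threshold (0.12 ± 0.23 SE, adjusted p = 0.707, edgeR), and was lower than in KO ESC (475.0, 497 and 531 CPM; -3.44 ± 0.24 SE, adjusted p = 9.91e-06).

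Igf2 encodes a growth factor that signals through the IGF receptors. Of 18 genes of IGF signalling, gathered with earlier results of these data known, KO XEN had 10 higher than WT XEN (55.6%, against 22.3% of all genes). It had 3 lower (16.7%, against 23.9%), and the median log2 fold change was 0.93. Set against KO ESC, 14 were higher (77.8%, against 34.8% of all genes) and 2 lower (11.1%, against 34.3%), with a median of 3.34. Igfbp3, an IGF binding protein, was at 552 and 363 CPM in KO XEN against 62 and 28.1 CPM in WT XEN (3.34 ± 0.38 SE, adjusted p = 0.000459, edgeR). Igfbp6, which prefers IGF2, was at 86.2 and 97.9 CPM in KO XEN against 5.01 and 1.88 CPM in WT XEN (4.74 ± 0.46 SE, adjusted p = 0.000286, edgeR). Pappa, a protease that frees IGFs from binding proteins, was at 27.1 and 14.6 CPM against 1.59 and 1.69 CPM (3.66 ± 0.45 SE, adjusted p = 0.000605, edgeR). Mmp14, a membrane metalloproteinase, was at 324 and 479 CPM in KO XEN against 95.3 and 67 CPM in WT XEN (2.31 ± 0.26 SE, adjusted p = 0.000457, edgeR). The 3 lower genes, named after their values were seen, were Igf1 (-4.71 ± 0.64 SE, adjusted p = 0.000925), Pik3r1 (-2.03 ± 0.35 SE, adjusted p = 0.00268) and Igf2bp2 (-0.66 ± 0.20 SE, adjusted p = 0.0278, all edgeR). Igf1, the other IGF ligand, was at 0.871 and 1.51 CPM in KO XEN, against 28.8 and 35.8 CPM in WT XEN and 0.024 to 0.312 CPM in KO ESC. The groups KO XEN and WT XEN did not overlap for Igfbp3, Igfbp6, Pappa, Mmp14 and Igf1. Since these genes were picked by their test results, this is a description. The share of all genes without overlap is not given, here or for the imprinted genes above.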

How the data were processed

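The deposited table holds raw counts of reads per gene by Ensembl ID for 7 libraries, made by the authors with STAR 2.4.2a and featureCounts 1.4.5-p1 on mm10, per the submitters' processing notes. Libraries were made with the Illumina TruSeq RNA kit and are reverse-stranded per the labels; the strand setting of counting is not given in the sources used here. Of 43629 IDs 42462 matched GENCODE M21, which supplied symbols, exon lengths and overlaps. The 38 imprinted genes and all other lists were chosen with earlier results of these data known. All members may be named; per-library values are given of those that passed a comparison and reached 5 CPM in a group, and of Rasgrf1 and Impact, which the rule leaves out. Other lists contribute up to 4 genes with the smallest adjusted p in a comparison of KO XEN; Zfp57, Tet1, Dppa3, Igf1, Pik3r1 and Igf2bp2 were added after their values were seen. Promoters are printed for some of the 9 genes this allows.

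Counts were tested with edgeR 4.0.16 (R 4.3.3) by the quasi-likelihood test after filterByExpr and TMM scaling, with Benjamini-Hochberg adjustment over all 18426 genes kept (18986 in the line fit). The 3-group fit had 4 residual degrees of freedom and the line fit 2. The code was tested on simulated data. Line names pair the knockout libraries because they are the same cell line, and the difference of C4 from 5-3 correlated at r = 0.0775 between states over 18426 genes. Alternatives were DESeq2 1.42.0, other scalings, no filter, line as a block, each library left out and both C4 libraries left out; DESeq2 gave no adjusted p for some genes, which stay uncounted. Figures were drawn with matplotlib.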

Additional observations from a re-analysis of the deposited data

How the results depend on the processing

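Of 47 called values of imprinted genes, 28 kept their call in every setting tried, 19 lost it in at least 1 and 0 changed sign. By comparison, 5 of 16 were kept in KO XEN against WT XEN, 20 of 28 in KO XEN against KO ESC and 3 of 3 in line C4 against line 5-3. With 1 library left out in turn, the number higher in KO XEN than in WT XEN ranged from 7 to 16 and the number lower from 0 to 3, with 4 lower without both C4 libraries. Against KO ESC the ranges were 15 to 18 higher and 7 to 10 lower. In C4 against 5-3 they were 3 to 13 higher and 0 to 4 lower; ES libraries alone gave 11 higher and 4 lower, and no filter on low counts gave 1 lower. With line as a replicate block, 17 were higher and 3 lower than in WT XEN, and 19 higher and 11 lower than in KO ESC; beyond the genes named in the report it changed the call of H19 in WT XEN against KO ESC (4.91, adjusted p = 0.000491).

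Values that did not pass and turned round did so without KO XEN C4, or, for Peg3, without KO ESC C4. With 1 library left out in turn, H19 in KO XEN against WT XEN ranged from -2.47 to 5.51, Plagl1 in the same comparison from -0.28 to 6.51, Plagl1 in KO XEN against KO ESC from -1.70 to 8.70 and Peg3 in C4 against 5-3 from -0.15 to 2.03. Without both C4 libraries H19 and Plagl1 in KO XEN against WT XEN were -2.47 and -0.28. The cause was not tested. KO XEN C4 had the lowest depth, groups hold 2 or 3 libraries, a group left with 1 library is assumed to vary like the others, and genes near 1 CPM rest on few counts.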

Other observations

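The other genes that differed between the knockout lines, chosen after their values were seen, included X-linked genes. Xlr3b and Xlr3c are close copies of each other, so their counts are uncertain. Xlr3b, whose maternal copy is the more active one in mouse brain, was at 2.47 CPM in C4 and 0.123 CPM in 5-3 among KO XEN, and at 13.2 CPM in C4 and 0.24 and 0.28 CPM in 5-3 among KO ESC (log2 difference 5.28 ± 0.39 SE, adjusted p = 0.0432, edgeR). Xlr3c was at 1.02 CPM in C4 and 0.0308 CPM in 5-3 among KO XEN, and at 17.1 CPM in C4 and 0.865 and 0.961 CPM in 5-3 among KO ESC (4.30 ± 0.29 SE, adjusted p = 0.0329, edgeR). Usp26 was at 0.944 CPM in C4 and 0.0308 CPM in 5-3 among KO XEN, and at 39.7 CPM in C4 and 0.456 and 0.741 CPM in 5-3 among KO ESC (5.95 ± 0.34 SE, adjusted p = 0.0198, edgeR). The single gene lower in C4 was Cubn, an endocytic receptor of visceral endoderm, at 8.64 CPM in C4 and 88.5 CPM in 5-3 among KO XEN, and at 2.06 CPM in C4 and 15.7 and 16.5 CPM in 5-3 among KO ESC (-3.18 ± 0.19 SE, adjusted p = 0.023, edgeR).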
